A study of Mus musculus with 2 samples.

Results

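Ribosomal protein genes were followed in cells of the cochlear lateral wall of newborn mice, sorted by a fluorescent reporter. They were taken as every row of the deposited table whose symbol starts with Rpl, Rps, Rplp, Rpsa, Eif or Eef in the form used for ribosomal proteins and translation factors, with the Rps6k kinases left out. The pattern matched 32 rows, of which 3 were kinases, so 29 of the 4197 genes of the table remained. The GFP positive cells came from mice labelled wnt1CRE::Ai3 and the GFP negative cells from mice labelled wnt1CRE::Ai4, while the protocol calls the mice wnt1CRE::EYFP. Both groups were taken at postnatal day 0 from the same tissue, carried Cre under the control of Wnt1, which is active in the forming neural crest, and were dissociated with trypsin before sorting. The series compares the GFP positive cells, named as intermediate cells of the stria vascularis, with the remaining cells of the lateral wall. The labels give 1 sample per group and do not say how many animals were pooled.

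Each ribosome is built from a large and a small subunit, whose proteins come, nearly all of them, from a single gene per protein. Ribosomal protein mRNAs are among the most abundant of a cell and begin with a stretch of pyrimidines, the TOP motif, through which mTOR signalling controls their translation. In the mouse, mutations of Rps19 and Rps20 give dark skin with more melanocytes, which links these proteins to pigment cells. Ribosomal protein mRNAs have also been copied back into the mouse genome many times, and such copies are hard to tell from the gene by short reads.

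The label of the group fits its ribosomal protein rows and not its translation factors. By their gene IDs, 23 rows are genes of the subunits, 12 of the large and 11 of the small. The row named Rps27 carries the ID of Rps27rt, a copy on chromosome 9 made from an Rps27 transcript, and the gene Rps27 on chromosome 3 is not among the listed genes. A further 4 rows are processed pseudogenes, which are copies with no known protein. The last row, Eif2c2, is the former symbol of Ago2, an Argonaute protein that cuts mRNAs matched by small RNAs and is no initiation factor. Of 68 protein-coding genes named Eif or Eef in the reference annotation, 0 were listed.

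The sequences around annotated starts are shown for the copy under the symbol Rps27 and for members that hold a shared motif. They span 40 bases before to 20 bases after the start, come from RefSeq on build GRCm38.p6, and are written 5′ to 3′ on the gene's strand. The Rps27rt window lies at chr9:114982720-114982779 on the minus strand and the Rps27 window at chr3:90213629-90213688 on the minus strand. The first 38 bases transcribed from Rps27rt also occur in the Rps27 promoter window, while only 8 of the 40 bases before that stretch are identical. The other windows are those of Rps6 (chr4:86857348-86857407, minus), Rpl12 (chr2:32961672-32961731, plus), Rps26 (chr10:128626487-128626546, minus), Rps24 (chr14:24490713-24490772, plus), Rps19 (chr7:24884552-24884611, plus), Rpl27a (chr7:109519155-109519214, plus), Rpl26 (chr11:68901526-68901585, plus), Rpl10a (chr17:28328525-28328584, plus) and Rpl31 (chr1:39367811-39367870, plus). Capitals mark a pyrimidine stretch of the TOP kind (the letters CTTTCC on the gene strand, the letters CTCTTT or the letters CTTTTC, which can overlap), the letters CTCGCGAG, or the letters CCGGAAG on either strand. The letters are marked wherever they stand in the window. The mark in Rps24 and the first mark in Rpl12 lie before the annotated start. The other marked pyrimidine stretches stand at the annotated start or some bases after it. A mark in the window thus need not be the beginning of a transcript.
Rps27rt: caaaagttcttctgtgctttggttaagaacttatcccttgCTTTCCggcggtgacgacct
Rps27: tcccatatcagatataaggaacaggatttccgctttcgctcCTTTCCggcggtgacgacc
Rps6: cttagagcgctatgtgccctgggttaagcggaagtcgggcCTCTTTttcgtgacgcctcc
Rpl12: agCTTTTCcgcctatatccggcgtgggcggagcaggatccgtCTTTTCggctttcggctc
Rps26: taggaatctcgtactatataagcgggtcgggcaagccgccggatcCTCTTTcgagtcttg
Rps24: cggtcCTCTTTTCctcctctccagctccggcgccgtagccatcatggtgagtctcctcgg
Rps19: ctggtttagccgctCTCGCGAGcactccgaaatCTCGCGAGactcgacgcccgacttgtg
Rpl27a: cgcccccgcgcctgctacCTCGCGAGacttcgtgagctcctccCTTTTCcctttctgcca
Rpl26: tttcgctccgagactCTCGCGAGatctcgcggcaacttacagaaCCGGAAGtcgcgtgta
Rpl10a: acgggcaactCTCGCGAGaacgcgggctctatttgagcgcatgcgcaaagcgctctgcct
Rpl31: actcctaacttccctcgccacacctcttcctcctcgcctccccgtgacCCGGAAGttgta

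Of the 23 subunit genes, 14 have such windows, 18 windows together, and a gene was counted if any of its windows held the letters. The further windows of Rps19, Rps24 and Rpl10a hold none of these letters and are not shown. A pyrimidine stretch of the TOP kind stood in 5 of these 14 genes (35.7%). It stood in 17 of the 43 subunit genes with a window that were not listed (39.5%), and in 8.07% of all 27025 genes. Over the whole promoter window of 300 bases it stood in 13 of the 14 (92.9%), 26 of the 43 (60.5%) and 33.4% of all genes. The palindrome CTCGCGAG stood in 4 of the 14 (28.6%), in 1 of the 43 (2.33%) and in 0.40% of all genes. Over 300 bases it stood in 6 of the 14 (42.9%), against 1 of the 43 (2.33%) and 1.04% of all genes. The letters CCGGAAG, searched on both strands, stood in 2 of the 14 (14.3%), 10 of the 43 (23.3%) and 4.48% of all genes, and over 300 bases in 6 of the 14 (42.9%), 18 of the 43 (41.9%) and 9.93% of all genes. These counts are of letters in a window, and no test was made of them.

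On the deposited scale all 28 ribosomal protein rows were lower in GFP positive cells, against 56.4% of all listed genes, and Eif2c2 was the only member that was higher, against 43.6% of listed genes. Centring on the median listed gene, whose log2 ratio was -1.31, put 27 of the 28 above zero. The deposited table holds no gene with a log2 ratio within 1 of zero, so this median need not be a point of no change. The median log2 ratio of the 28 rows was -1.11, with a range from -1.38 to -1.00, against -1.34 over all listed genes and -2.43 over the genes listed as lower, and the median became 0.20 after centring. Values are normalised read counts, and log2 ratios set the GFP positive over the GFP negative value after adding 1 to both. The 28 rows summed to 264265 in GFP positive cells and to 575508 in GFP negative cells, which is 1.62% and 4.55% of all listed values. No member differed by 4-fold or more, against 37.2% of all listed genes at 4-fold or more lower and 18.2% at 4-fold or more higher. In bulk samples, fewer cells of a type and less RNA per cell cannot be told apart.

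The table sets what can be read from these counts. In the authors' deposited table every gene has an adjusted p-value of at most 0.00986 and a log2 ratio beyond 1 in size. A ribosomal protein gene that lay closer to equality has no value here. Of 77 subunit genes 23 were listed (29.9%), against 3830 of 21951 protein-coding genes (17.4%), and the remaining 54 are neither shown to differ nor to be equal. With 1 GFP negative library no ratio has a replicate check, and the 95% intervals given with the folds are exact binomial (Clopper-Pearson) intervals that cover counting error only. The GFP positive value is the authors' mean of a pair of libraries, called A and B here, whose reads could be recovered from the mean.

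**Figure D1:**
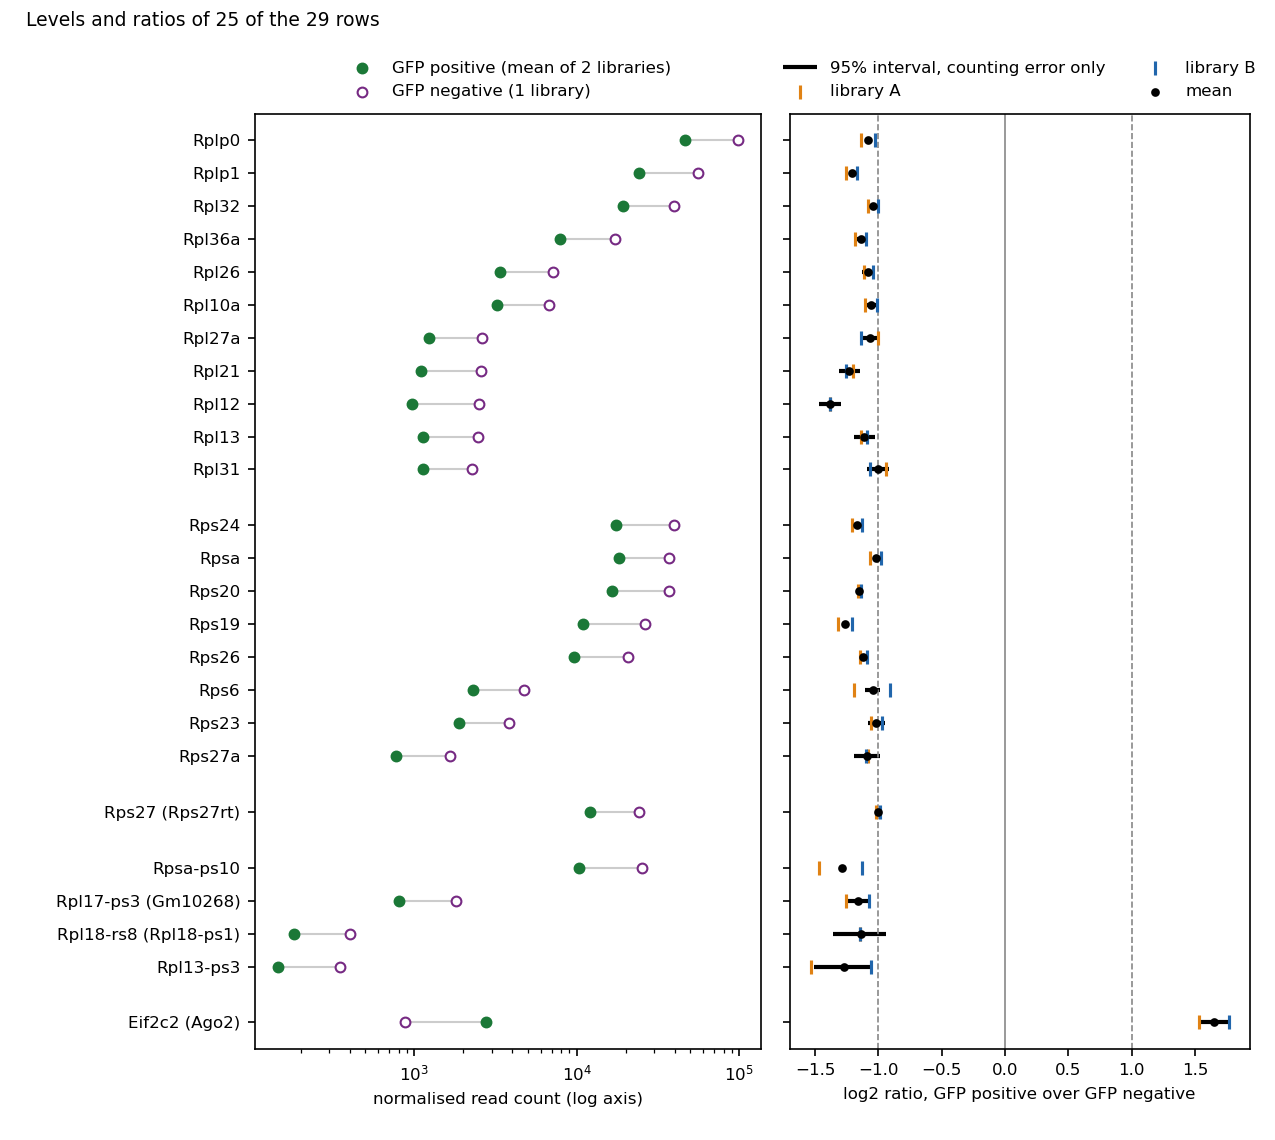
Left, normalised read count (log axis) of 25 of the 29 rows in GFP positive cells (filled, authors' mean of 2 libraries) and in the GFP negative library (open). Right, the log2 ratio of the mean with its 95% counting interval and the ratios of libraries A and B, dashed lines at -1 and 1. On this scale the ribosomal protein rows lie from -1.38 to -1.00 and Eif2c2 at 1.65, while centring on the median listed gene puts 27 of the 28 above zero.

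Libraries A and B gave nearly the same values for most rows. Of the 28 ribosomal protein rows, 22 were lower in A than in B, with a median log2 ratio of A over B of -0.08, against -0.01 over 4187 listed genes with reads in both. Set against the same GFP negative library, the rows were 1.92 to 2.90-fold lower in A and 1.88 to 2.61-fold lower in B on the deposited scale, which centring reverses for 27 rows of the mean. Among these listed rows the SD of the log2 ratios was 0.10, beside a median difference between A and B of 0.08 in size. The limit of the table leaves out genes closer to equality, so this spread does not describe all ribosomal protein genes. The levels of the 28 rows spanned far more, from 351 for Rpl13-ps3 to 97758 for Rplp0 in GFP negative cells, which is 279-fold.

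Among the 12 genes of the large subunit, the most abundant were Rplp0 and Rplp1, of the stalk that receives the elongation factors. Rplp0, the base of the stalk, had 44508 in library A and 48035 in library B of GFP positive cells, against 97758 in GFP negative cells. Both positive libraries lay below the negative one, and the mean was 2.11-fold lower (2.09 to 2.13). Rplp1, a stalk protein that binds to it, had 23290 and 24757 in GFP positive libraries A and B, against 55618 in GFP negative cells. Its mean was 2.32-fold lower (2.29 to 2.34), beyond Rplp0 by more than counting error. The order was the same in each positive library. In A it was 2.39-fold for Rplp1 and 2.20-fold for Rplp0, and in B 2.25-fold for Rplp1 and 2.04-fold for Rplp0. Both were set against the same GFP negative library, so the shared order is no replicate check. Rpl12, which sits at the foot of the stalk, had the largest difference of all 28 rows on the deposited scale and was the single one still below zero after centring, at -0.07. It had 967 in GFP positive library A and 963 in B, against 2516 in GFP negative cells, which is 2.61-fold lower (2.46 to 2.77).

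The other listed genes of the large subunit followed within a narrow range of ratios, cut on the side of equality by the limit of the table. Rpl32 had 18591 and 19693 in GFP positive libraries A and B, against 39403 in GFP negative cells, a log2 ratio of -1.04. Rpl36a, an X-linked gene, had a GFP positive mean of 7841 against 17283 in GFP negative cells, with -1.14. Rpl31 had the smallest difference of the subunit on the deposited scale and the highest ratio after centring (log2 0.31), with 1178 and 1082 in GFP positive libraries A and B against 2265 in GFP negative cells, which is 2.00-fold lower (1.89 to 2.13). Its counting interval does not overlap that of Rpl12, but summed with their listed copies Rpl31 was 2.04-fold and Rpl12 2.10-fold lower. Rpl10a, the mobile L1 stalk at the exit site for tRNA, had 3216 in GFP positive against 6699 in GFP negative cells, and Rpl26 had 3374 in GFP positive against 7125 in GFP negative cells. Rpl13, Rpl21 and Rpl27a had GFP positive means from 1097 to 1240, with log2 ratios from -1.23 to -1.07. Rpl21 shares coding sequence with BC004004, an overlapping gene listed at 5449 in GFP positive and 2194 in GFP negative cells, so the split of reads between them is uncertain.

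Among the 11 genes of the small subunit, Rps24, Rpsa and Rps20 stood at close to equal levels in GFP negative cells. Rps24, mutated in some human families with Diamond-Blackfan anaemia, had 17060 and 17950 in GFP positive libraries A and B, against 39379 in GFP negative cells. It was lower in each GFP positive library, and the mean was 2.25-fold lower (2.22 to 2.28). Rpsa, also known as a precursor of the laminin receptor, had 17732 and 18835 in GFP positive libraries A and B against 37103 in GFP negative cells, which is 2.03-fold lower (2.00 to 2.06). Rps20, whose mutation darkens mouse skin, had 16432 and 16702 in GFP positive libraries A and B against 36809 in GFP negative cells, which is 2.22-fold lower (2.19 to 2.26). The counting intervals of Rpsa and Rps20 do not overlap. Rps20 had the larger fold in library A (2.24 and, for Rpsa, 2.09) and in library B (2.20 and, for Rpsa, 1.97). Both libraries were set against the same GFP negative library. Summed with its 2 listed copies, Rpsa was 2.18-fold lower, while Rps20 had no listed copy. The split of reads between Rpsa and its copies leaves this gap uncertain.

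Rps19 had the largest difference of the small subunit on the deposited scale and the ratio nearest to zero after centring, at log2 0.05. Rps19, the other dark skin gene and the gene most often mutated in Diamond-Blackfan anaemia, had 10490 and 11340 in GFP positive libraries A and B, against 26187 in GFP negative cells. Its mean was 2.40-fold lower (2.36 to 2.44). Rps6, the target of the S6 kinases, had 2064 and 2508 in GFP positive libraries A and B against 4716 in GFP negative cells, and its difference between A and B (log2 -0.28) was the widest of the 23 subunit genes. Rps23, which lies at the decoding centre, had the smallest difference of the subunit on the deposited scale and its highest ratio after centring (log2 0.30), with 1826 and 1936 in GFP positive libraries A and B against 3803 in GFP negative cells, a log2 ratio of -1.02. Rps26 had a log2 ratio of -1.12. Rps27a, which encodes ubiquitin fused to a ribosomal protein, was the lowest of the subunit in level, with 776 in GFP positive against 1654 in GFP negative cells. 

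The 5 copies that the symbol rule brought in had ratios within the range of the genes, and which locus their reads came from is uncertain. The row Rps27, that is Rps27rt, had 11887 and 12125 in GFP positive libraries A and B, against 24061 in GFP negative cells. Its log2 ratio in the authors' deposited table, -1.0029, was the nearest of all members to the limit, followed by Rpl31 with -1.0031. Of the 4 processed pseudogenes only Rpsa-ps10, a copy of Rpsa on chromosome 3, was abundant, with 9090 and 11512 in GFP positive libraries A and B against 25128 in GFP negative cells. It was 2.44-fold lower (2.39 to 2.48) in the mean, 2.76-fold in A and 2.18-fold in B. Rpl17-ps3 (Gm10268) had 808 in GFP positive against 1807 in GFP negative cells. Rpl18-rs8, by its ID Rpl18-ps1, had 182 in GFP positive against 403 in GFP negative cells. Rpl13-ps3 had 121 and 168 in GFP positive libraries A and B against 351 in GFP negative cells, the widest gap between A and B of the 28 rows, with a log2 ratio of -0.48. The 4 pseudogenes had a median log2 ratio of -1.22, which becomes positive after centring, as does that of the subunit genes (-1.10).

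Eif2c2 was the minority among the members. It had 2526 and 2976 in GFP positive libraries A and B, against 875 in GFP negative cells, and both libraries lay above the GFP negative value. The mean was 3.14-fold higher (2.92 to 3.38), a log2 ratio of 1.65, and no scaling tried here turned it. No close copy of it was found in the reference transcripts.

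The ribosomal protein rows lay at the edge of the table nearest to equality. Ordered from the smallest to the largest difference, they took places between 2 and 309 of the 2366 genes listed as lower, the first 13.1%, and 13 of the 28 had a log2 ratio above -1.1 in the authors' deposited table. All 28 were under 3-fold lower on the deposited scale, against 20.6% of the genes listed as lower (488 of 2366). Most other genes listed as lower with a GFP negative value of 10000 or more lay further from equality. That threshold lets in genes that are high only in GFP negative cells, so they are no matched background. Whether level plays a part was not tested. Of 15 ribosomal protein rows with a GFP negative value of 10000 or more, 15 were under 3-fold lower, whereas of 161 other genes listed as lower at that level 27 were (16.8%), with a median log2 ratio of -2.91. In the narrow band of log2 ratios from -1.1 to -1.0 lay 13 of the rows, 12 copies under other symbols and 45 other genes. The rows were chosen by symbol, but only among genes whose ratio had passed the limit of the table, which cut the same edge for all genes. How many ribosomal protein genes lie on its other side is not shown by these data.

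**Figure D2:**
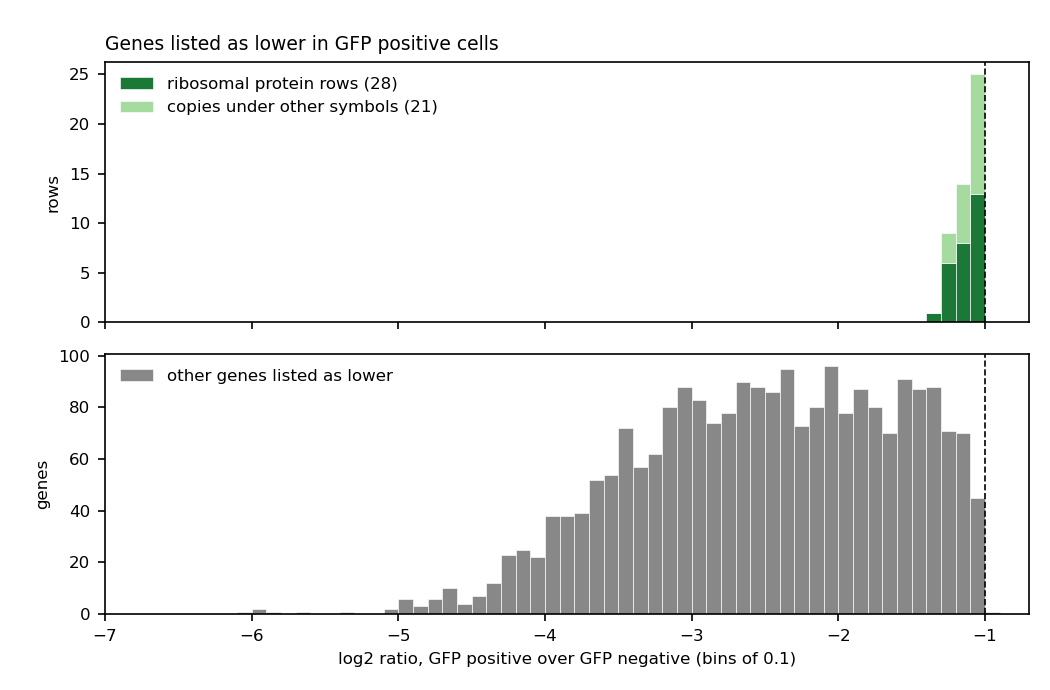
Number of genes by log2 ratio, GFP positive over GFP negative, in bins of 0.1, for the 28 ribosomal protein rows and 21 copies under other symbols (above) and for all other genes listed as lower (below). The dashed line marks the limit of the table at -1, next to which the ribosomal rows stand between -1.38 and -1.00, a place that is above zero for 27 of the 28 after centring on the median listed gene.

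A further 21 listed rows copy a ribosomal protein gene by sequence, at 95% identity or more over at least 70% of their length, under symbols that do not name one. All 21 were lower in GFP positive cells on the deposited scale, with log2 ratios from -1.22 to -1.02 and a median of -1.09, which turns positive after centring. They summed to 97335 in GFP positive and 209587 in GFP negative cells. That is 26.9% and 26.7% of the summed values of these copies and the 28 ribosomal protein rows. Unlisted genes and copies have no value and are not in that sum. Together with them the set grew to 49 rows with a median of -1.10. Of the 26 copies in and outside the rule, several belong to the 6 genes that are not listed themselves, Rpl5, Rpl17, Rps3a1, Rps7, Rps12 and Rps27. The Rpl5 copy Gm15500 had 13107 in GFP positive against 28538 in GFP negative cells, and the Rps3a1 copy Rps3a3 had 7787 in GFP positive against 17941 in GFP negative cells. 

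For 13 subunit genes both the gene and a copy were listed, and in 5 of these the copies held more reads than the gene. Rpl12 had 965 in GFP positive and 2516 in GFP negative cells, whereas its copy Gm10275 had 12378 in GFP positive and 25546 in GFP negative cells. Rps6 had 2286 in GFP positive and 4716 in GFP negative cells, and its copy Rps6-ps4 had 10371 in GFP positive and 21277 in GFP negative cells. The other 3 were Rpl13, Rpl31 and Rps27a. Summed over gene and copies, the log2 ratios of the 13 families ran from -1.25 to -1.03, all of them turned by centring, and the sum for Rpl12 was 2.10-fold lower (13343 in GFP positive and 28063 in GFP negative cells), against 2.61-fold for the gene alone. The largest difference among the 28 rows on the deposited scale was thus not that of its family. How the authors assigned reads that match several places is not given in the sources used here, so the split within a family is uncertain.

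**Figure D3:**
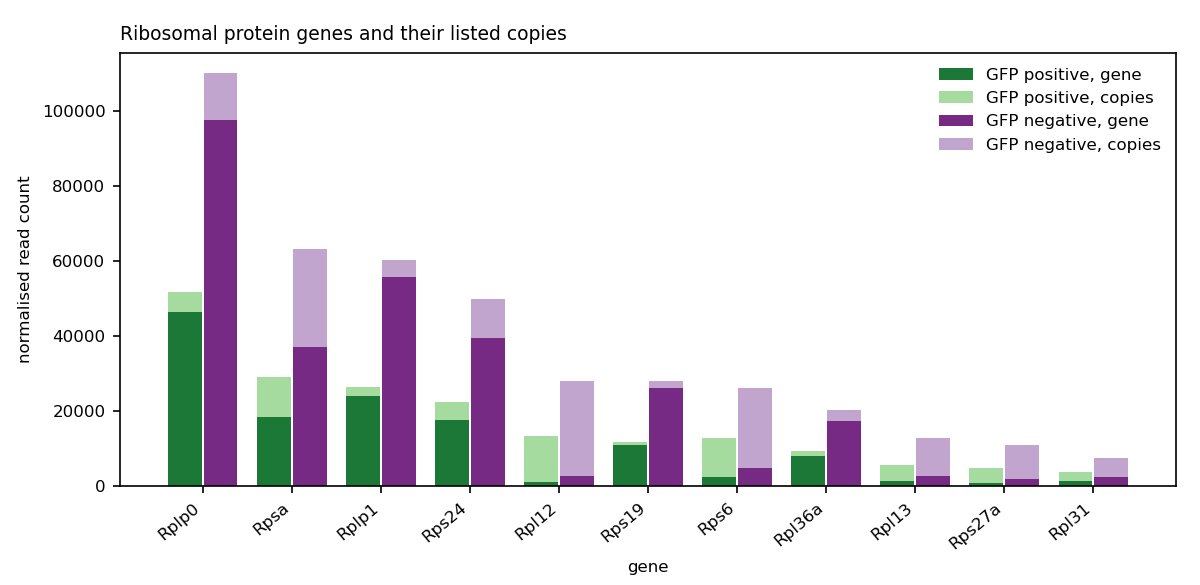
Normalised read counts of 11 of the 13 subunit genes (dark) with their listed copies stacked on top (light), GFP positive (left bar, authors' mean) and GFP negative (right bar). Every stack is lower in GFP positive cells on the deposited scale, which centring on the median listed gene turns, and copies make up most of the stacks of Rpl12, Rps6, Rpl13, Rps27a and Rpl31.

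Among the 23 listed subunit genes, those with more close copies in the reference had fewer reads per kb in the median, with overlapping ranges. The 9 subunit genes with up to 5 close copies had a median of 34631 normalised reads per kb of coding length in GFP positive cells and 73062 in GFP negative cells. The 14 with more copies had medians of 3723 in GFP positive and 7589 in GFP negative cells. In GFP negative cells the values ran from 10338 to 162626 for up to 5 copies and from 3534 to 98694 for more. Across the 23 genes the Spearman correlation of the number of copies with the GFP negative level per kb was -0.60. With the log2 ratio it was 0.12, and both sets of genes had a median log2 ratio of -1.10, which centring turns. Genes are not independent replicates, and these values describe the 23 listed genes only. Highest per kb was Rplp1, with 70245 in GFP positive and 162626 in GFP negative cells, and lowest was Rps27a, with 1659 in GFP positive and 3534 in GFP negative cells.

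**Figure D4:**
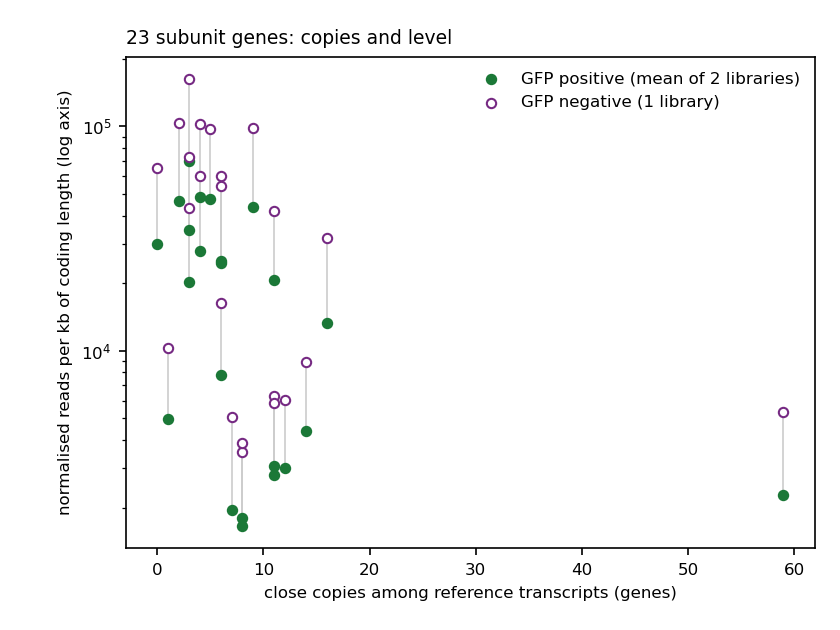
Normalised reads per kb of coding length (log axis) of the 23 subunit genes against the number of close copies of each in the reference transcripts, in GFP positive (filled) and GFP negative cells (open). The genes with more than 5 copies have medians of 3723 in GFP positive and 7589 in GFP negative cells, against 34631 in GFP positive and 73062 in GFP negative cells for the others.

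The remaining machinery of protein synthesis was nearly empty in the table. None of the listed genes came from 5 lists of initiation factors with their inhibitors and kinases, of 16, 5, 14, 12 and 8 genes, from 14 elongation factors, 9 genes of termination and recycling, 18 of nascent chain handling, 23 cytosolic tRNA synthetases, 78 mitochondrial ribosomal proteins or the 3 ribosomal proteins named outside the rule. The copy of Eif3e, Eif3s6-ps1, was listed with 92.9 in GFP positive against 205 in GFP negative cells. Unlisted genes have no value, so the data do not say whether these factors were equal. Of 72 genes of ribosome biogenesis 2 were listed, against 17.4% of protein-coding genes, and both were higher, against 43.6% of all listed genes. Bop1, which acts in the maturation of the large subunit, had 9776 in GFP positive against 2558 in GFP negative cells. Taf1d, a subunit of the factor that recruits RNA polymerase I, had 12397 in GFP positive against 2385 in GFP negative cells. Of 26 mitochondrial translation factors, Gfm1 had a log2 ratio of 1.02 and Ears2 of -1.06.

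Genes that carry small nucleolar RNAs in their introns are often TOP genes too. Of 17 such host genes 7 were listed, against 17.4% of protein-coding genes, a share that does not cover host genes without a long reading frame. Of these 7, 6 were lower, against 56.4% of all listed genes. Their median log2 ratio was -1.17, which centring turned to 0.15, leaving 2 lower. Gas5, a host gene whose RNA carries a TOP motif and no long reading frame, had 6701 in GFP positive against 14868 in GFP negative cells and a log2 ratio of -1.15. Snhg12 and Snhg17 had -1.14 and -1.17, and Snhg11 had the largest difference of the lower ones on the deposited scale, with -1.82. Taf1d, which hosts several of these RNAs, was the higher one, with a log2 ratio of 2.38.

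Regulators of translation went in both directions. Of 23 poly(A) and mRNA binding regulators 5 were listed, against 17.4% of protein-coding genes. Of these 5, 4 were higher, against 43.6% of all listed genes, and the median log2 ratio was 2.02. The 4 Cpeb genes, which control the poly(A) tail of bound mRNAs, were all higher: Cpeb4 had 18732 in GFP positive against 2093 in GFP negative cells, Cpeb1 had 4023 in GFP positive against 76.2 in GFP negative cells and a log2 ratio of 5.70, and Cpeb2 and Cpeb3 had log2 ratios of 1.94 and 2.02. Igf2bp1, an mRNA binding protein of embryonic tissues, was lower, with 77.0 in GFP positive against 346 in GFP negative cells. Of 25 genes of the mTOR pathway and the ribosomal S6 kinases 5 were listed, against 17.4% of protein-coding genes. Most of the 5 were Rps6ka kinases, and the others were Rhebl1 and Ddit4l. Of these 5, 4 were lower, against 56.4% of all listed genes, and the median was -2.13. After centring, 3 were lower, since Rhebl1 turned, and the median was -0.82. Rps6ka3 had 26304 in GFP positive against 8044 in GFP negative cells, and Rps6ka1 had 661 in GFP positive against 2894 in GFP negative cells, so these related kinases differed in direction, with log2 ratios of 1.71 and -2.13. Ddit4l, an inhibitor of mTOR, had a log2 ratio of -2.88 and Rhebl1 one of -1.12.

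Targets of the integrated stress response, in which phosphorylated eIF2 lowers initiation and raises Atf4, had 8 of 20 genes in the table, against 17.4% of protein-coding genes. Of the 8, 6 were lower, against 56.4% of all listed genes, and the median log2 ratio was -1.95, or -0.64 after centring, which left 6 lower. Slc3a2, a subunit of amino acid transporters, had 23378 in GFP positive against 5631 in GFP negative cells, and Phgdh, the first enzyme of serine synthesis, had 1590 in GFP positive against 10011 in GFP negative cells. Ddit3 had a log2 ratio of 1.29. Within the Myc family, whose members drive or oppose ribosomal gene expression, 5 of 11 were listed, against 17.4% of protein-coding genes. Of these 5, 2 were higher and 3 lower, against 43.6% and 56.4% of all listed genes. Their median was -1.24, which centring turned to 0.07. The opposing factors Mxd1 and Mxd3 had GFP positive means of 2575 and 1308, against GFP negative values of 859 and 349, and log2 ratios of 1.58 and 1.90. Myc had 552 in GFP positive against 1307 in GFP negative cells, a log2 ratio of -1.24. Mycl had 140 in GFP positive against 1070 in GFP negative cells, a log2 ratio of -2.93, and Mycn had -1.93.

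**Figure D5:**
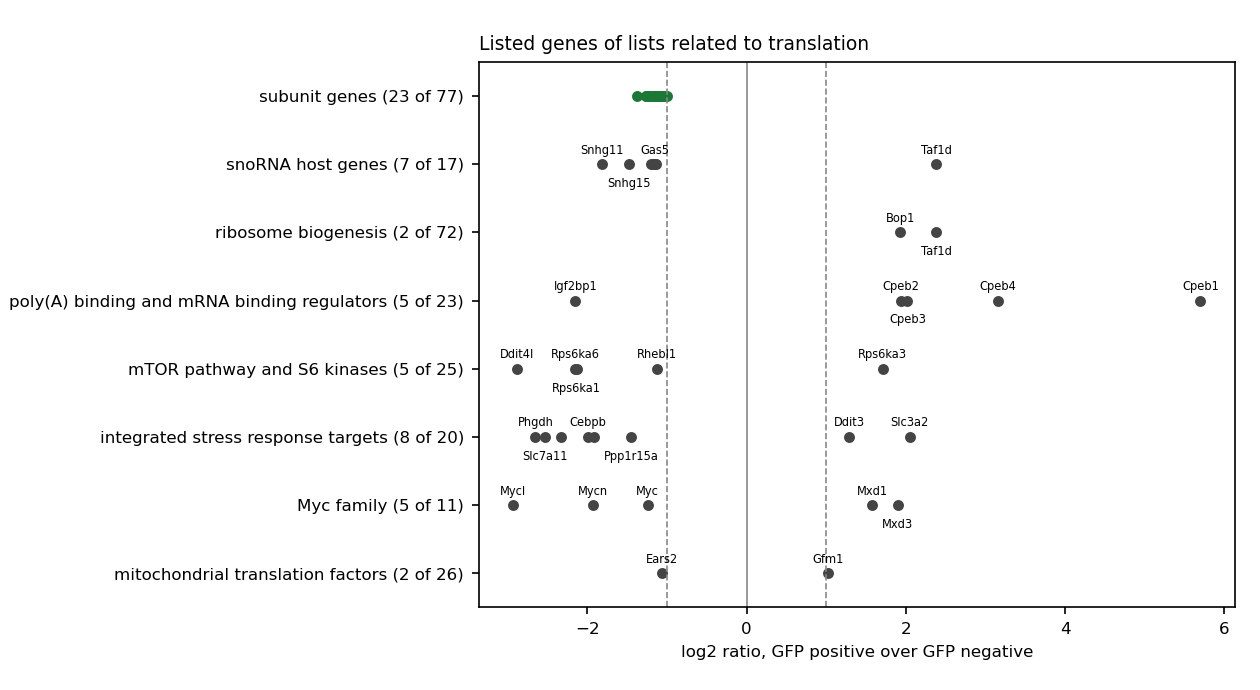
Log2 ratios, GFP positive over GFP negative, of the listed genes of 7 lists beside the 23 subunit genes, with the number listed of the number in each list and dashed lines at -1 and 1. Some names are left out where points lie close. The subunit genes and 5 of the 6 lower snoRNA host genes stand between -1.48 and -1.00, above zero for most after centring, while the Cpeb genes reach 5.70.

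Listed genes held 17120511 reads in library A, 16584559 in library B and 12114107 in the GFP negative library. The markers of the sorted cells moved with the fractions: 10 of 10 pigment cell markers were listed and higher, with a summed value of 2083954 in GFP positive and 5309 in GFP negative cells, and 7 of 10 glial markers were higher, at 112996 in GFP positive and 4821 in GFP negative cells. Lower, with the sum in GFP positive and then in GFP negative cells, were 9 of 10 fibrocyte and mesenchyme markers (101377 and 1086540), 7 of 7 cartilage markers (66681 and 1283163), 6 of 7 erythroid markers (1500 and 90382), 10 of 10 leukocyte markers (1438 and 8179), 2 of 8 endothelial markers (776 and 9252) and 1 of 8 skeletal muscle markers (14.8 and 116). Of 8 neuron markers 1 was higher and 2 lower (1374 and 7905), and of 8 epithelial and marginal cell markers 0 were listed. No listed marker stood at zero in either group. The part of this difference in cell types in the ribosomal protein values was not tested.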

How the data were processed

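RNA of GFP positive and GFP negative cells was sequenced from TruSeq libraries, per the labels' protocols, and aligned with STAR to mm9, per the submitters' processing notes. Not given in the sources used here are the counting tool, the annotation, the strand setting and the test. Per the file headers, the authors deposited a normalised signal (reads divided by a size factor) for GFP negative cells, an average for GFP positive cells, their ratio (fold) with its log2, and p-values with adjusted ones. All GFP negative values (100%) were whole multiples of a single step within 1e-06 reads, and 100% of the averages were the sum of 1 pair of whole reads from 2 libraries within a relative tolerance of 1e-13. Size factors were 1.07 for library A, 0.991 for library B and 0.958 for the GFP negative library. The labels do not name libraries A and B: the average carries 180K and the GFP positive sample 68K.

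Before taking log2 ratios, 1 was added to each value. Large differences were counted from 4-fold on, where the higher group had 5 or more. Gene IDs were matched to GENCODE M21 (4064 found, 133 not). Close copies were found with BLAST 2.17.0 at 95% identity over 70% of the coding sequence (APPRIS principal transcript). Alternatives were a pseudocount of 0 or 5, only genes reaching 100 in a group, centring, scaling to the listed total, each GFP positive library left out, subunit genes only, and edgeR 4.0.16 on recovered reads, which compares these libraries and not the conditions and was tested on simulated data. The members and lists were chosen with earlier results of these data known. Values are given in full for the members in the minority direction, the most abundant and the extremes of each role, and those with listed copies, and some other genes were named after their values were seen. With 1 sample per group, no difference between the conditions was tested, and edgeR's adjusted p-values enter only as a count among the alternatives. A few members are counted in the totals but not reported here by name.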

Additional observations from a re-analysis of the deposited data

How the results depend on the processing

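The direction of the ribosomal protein rows turned with centring and with no other alternative tried. All listed genes have a deposited log2 ratio beyond 1 in size and 56.4% are lower, so their median need not mark equal expression. Centring on the median listed gene, which moves every log2 ratio by 1.31 or 1.32, turned their median from -1.11 on the deposited scale to 0.20 and left 1 member lower and 28 higher, in place of 28 and 1, with 27 of 28 ribosomal protein rows between zero and 0.31 and Rpl12 at -0.07. Scaling both columns to the same listed total gave -1.48 and left all 28 lower. The Eif2c2 log2 ratio became 2.96 with centring, the single member then past 4-fold (1, against 0), and 1.28 with scaling to the total. Without library A or B the ribosomal protein median was -1.09 or -1.14, the Eif2c2 ratio 1.77 or 1.53, and the snoRNA host gene median -1.19 or -1.16. The medians of the mRNA binding regulators were 2.05 or 2.08, and of the mTOR and S6 kinase genes -2.12 or -2.03. Those of the stress response targets were -1.99 or -1.92 and of the Myc family -1.25 or -1.23. The counts of 28 lower, 1 higher and 0 at 4-fold were the same without either library. Centring and scaling to the total gave 0.15 and -1.53 for the snoRNA host genes and 3.33 and 1.65 for the mRNA binding regulators. They gave -0.82 and -2.50 for the mTOR and S6 kinase genes. For the stress response targets they gave -0.64 and -2.31, and for the Myc family 0.07 and -1.61. A pseudocount of 5 gave -1.85 for the stress response targets. Subunit genes alone, or all 49 rows with copies by sequence, which were added after seeing the data, gave a ribosomal protein median of -1.10. edgeR's quasi-likelihood test on the recovered reads called 28 members lower and 1 higher at an adjusted p of 0.05, as it called all 4197 listed genes, which were selected on these libraries. The shifts with centring and with scaling to the total follow from the construction of each scale. The cause of the other shifts was not tested. No paired analysis was possible because the labels give 1 sample per group. A table cut at a 2-fold difference, 1 GFP negative library and reads shared with copies limit what these values show.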

Other observations

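Small nucleolar RNAs, which guide the modification of ribosomal RNA, made up 14 listed rows, with 8 higher and 6 lower in GFP positive cells on the deposited scale. The 7 rows inside Taf1d had log2 ratios from 1.63 to 2.57, and Taf1d itself had 2.38. The SNORA18 row had 758 in GFP positive and 144 in GFP negative cells, and the SNORD5 row had 744 in GFP positive and 143 in GFP negative cells. The 3 rows inside Snhg1, an unlisted host gene, had log2 ratios from -1.24 to -1.00, which is the range of most ribosomal protein rows and which centring on the median listed gene turns positive. Its SNORD22 row had 281 in GFP positive and 667 in GFP negative cells. The row inside the ribosomal protein gene Rps16 had 41.0 in GFP positive against 128 in GFP negative cells, while Rps16 was not listed. Of the 14 rows, 12 lie inside longer transcripts, where reads of both cannot be told apart.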
